A study of Mus musculus with 3 samples.

Results

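The genes described here are 50 genes of mitosis that code for mitotic kinases, kinetochore and spindle proteins, and proteins of cytokinesis, chosen as the rows of the count files whose gene symbol is in a given list. All 50 were found among the 23238 gene symbols of the files, and all 50 were among the 13169 genes tested, which reached 1 CPM (counts per 1000000 counts) in at least 1 library. The cells were C2C12, immortalized mouse myoblasts that leave the cell cycle and fuse into myotubes once serum is lowered. Cells grown with 10% fetal bovine serum were switched to medium with 2% horse serum and kept there for 2 days on tissue culture plates (TCP), on a hydrogel of 15% methacrylated gelatin (GelMA), or on the same hydrogel mixed with 1% poly(sodium 4-styrenesulfonate), a sulfonated heparin-mimicking polymer (GelMA-PSS). Each substrate has 1 library of total RNA from that 1 line, so differences between substrates could not be checked on replicates and carry no p-value.

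Entry into mitosis is driven by CDK1 bound to B-type cyclins, with Plk1 and the Aurora kinases acting beside it. Kinetochores then attach chromosomes to spindle microtubules, and the spindle assembly checkpoint holds back the anaphase-promoting complex until every chromosome is attached, after which securin is destroyed, separase is freed and the cell divides by cytokinesis. Most of these genes are transcribed late in the cell cycle, and in muscle they are switched off as myoblasts withdraw from the cycle to differentiate.

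Many promoters of this class hold a CCAAT box and a cell-cycle genes homology region (CHR), the element through which the DREAM and MuvB complexes act. The RefSeq promoter table (GRCm38.p6, 250 bases before to 50 bases after each start) held 43 of the 50 genes. The letters TTTGAA or TTTAAA, read on both strands (TTCAAA is TTTGAA on the opposite strand, and TTTAAA reads the same on both), were present in 35 of these 43 genes, or 81.4%, against 30.6% of all 27025 genes in the table. CCAAT, or ATTGG on the opposite strand, was present in 34 genes, or 79.1%, against 41.1%, and both kinds of letters stood together in 30 genes, or 69.8%, against 12.2%. Counted by promoter, since some genes have more than 1, the shares with both were 71.7% of 46 promoters and 10.7% of all 32851. The 130 bases before the start of 8 of these genes are shown 5′ to 3′ on the gene's own strand, to show how close these letters lie to each other and to the start. They cover the kinase and cyclin of mitotic entry, an activator and the ubiquitin-conjugating enzyme of the anaphase-promoting complex, a Cks protein, separase and the chromosome proteins Top2a and Mki67, and were chosen after their letters were seen. Capitals mark the CHR letters and the CCAAT letters.
Cdk1, chr10:69352913-69353042, minus strand: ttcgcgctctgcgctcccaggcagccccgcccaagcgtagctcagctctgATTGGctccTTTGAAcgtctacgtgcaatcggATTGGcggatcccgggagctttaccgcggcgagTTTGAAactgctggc
Ccnb1, chr13:100786487-100786616, minus strand: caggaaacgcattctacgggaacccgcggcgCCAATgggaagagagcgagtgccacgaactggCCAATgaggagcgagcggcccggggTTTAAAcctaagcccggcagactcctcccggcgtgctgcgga
Cdc20, chr4:118437344-118437473, minus strand: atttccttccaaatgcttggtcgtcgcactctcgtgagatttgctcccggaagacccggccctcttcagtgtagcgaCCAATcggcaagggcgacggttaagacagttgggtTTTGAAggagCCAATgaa
Ube2c, chr2:164769799-164769928, plus strand: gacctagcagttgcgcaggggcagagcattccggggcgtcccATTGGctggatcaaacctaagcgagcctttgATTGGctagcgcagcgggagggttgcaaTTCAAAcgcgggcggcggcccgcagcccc
Cks1b, chr3:89418292-89418421, minus strand: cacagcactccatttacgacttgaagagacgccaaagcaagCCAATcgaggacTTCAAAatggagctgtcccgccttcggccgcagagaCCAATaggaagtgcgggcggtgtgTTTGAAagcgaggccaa
Top2a, chr11:99024190-99024319, minus strand: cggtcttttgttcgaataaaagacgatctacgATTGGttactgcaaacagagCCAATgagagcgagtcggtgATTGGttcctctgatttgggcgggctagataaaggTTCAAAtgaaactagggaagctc
Espl1, chr15:102296163-102296292, plus strand: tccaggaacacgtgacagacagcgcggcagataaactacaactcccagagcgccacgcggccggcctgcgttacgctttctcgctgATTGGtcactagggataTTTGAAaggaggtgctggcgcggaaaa
Mki67, chr7:135716380-135716509, minus strand: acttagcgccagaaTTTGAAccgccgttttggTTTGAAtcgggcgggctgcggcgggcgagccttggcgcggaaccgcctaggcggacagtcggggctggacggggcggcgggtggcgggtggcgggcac

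In Cdk1 the pattern of an ATTGG followed by a TTTGAA occurs 2 times in this window, and Ccnb1 has 2 copies of CCAAT before its TTTAAA. Mki67 has 2 copies of TTTGAA in the window, while its CCAAT letters lie farther upstream than the bases shown. Mad2l1, Nuf2, Nusap1 and Pttg1 were the 4 genes with neither kind of letters in the whole promoter window. A match is a description of the letters and not evidence of a bound site.

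The libraries held 87071144 to 192171443 counts, with the GelMA-PSS library the deepest. The 6 myoblast and muscle markers were all present but did not share an order. On TCP, GelMA and GelMA-PSS, the myoblast factors Myod1 and Myf5 stood at 94.3, 105 and 119 CPM and at 13.9, 19.5 and 36.5 CPM. Myog, Des and Cdh15 were each lowest on GelMA and close between TCP and GelMA-PSS, at 1100, 895 and 1037 CPM, at 3299, 2863 and 3154 CPM and at 669, 610 and 672 CPM. Of 12 markers of fibroblasts, immune, endothelial and epithelial cells, Tcf21 had 0 counts in every library, Ptprc had 0, 0 and 4 counts, the 3 endothelial markers stayed at or under 0.132 CPM, and the highest single value was 10.2 CPM for Cdh1. The summed level of the fibroblast markers was 7.77 CPM on TCP, 12.5 CPM on GelMA and 9.65 CPM on GelMA-PSS, and that of the epithelial markers 10.3, 8.31 and 5.43 CPM. The embryonic myosin Myh3, a marker of differentiated myotubes, stood at 10182 CPM on TCP, 6355 CPM on GelMA and 3037 CPM on GelMA-PSS, the opposite order to that of Myod1, Myf5 and most of the mitotic genes described next. The part of these markers in the mitotic values was not tested. Whether the share of cells still dividing differed between the cultures was not tested, and in bulk RNA fewer dividing cells and less mitotic RNA per cell cannot be told apart.

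The mitotic genes as a group were lowest on TCP, intermediate on GelMA and highest on GelMA-PSS, except that as TPM without TMM factors their median log2 ratio of GelMA-PSS to GelMA was -0.088. Their summed level was 1088 CPM on TCP, 1500 CPM on GelMA and 1884 CPM on GelMA-PSS. As a share of all counts this was 0.111% (95% Wilson interval 0.110% to 0.111%), 0.157% (0.156% to 0.157%) and 0.178% (0.177% to 0.178%), intervals that cover counting error only. The median gene was at 15.0, 22.5 and 30.1 CPM. Every one of the 50 genes was above 1 CPM in all 3 libraries, from 3.79 CPM for Cdc25c on TCP to 114 CPM for Top2a on GelMA. Per kilobase of coding sequence, Cks2 was the highest in every library, at 66.7, 94.7 and 216 CPM per coding kilobase on TCP, GelMA and GelMA-PSS. Aspm was the lowest, at 1.16, 2.07 and 1.22. This ranking of genes depended on the length used. Per kilobase of whole transcript, Bub3 stood above Cks2 on TCP, at 28.8 against 22.8 CPM per kilobase. Mad2l1 stood just below Aspm on GelMA, at 1.94 against 1.96.

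**Figure D1:**
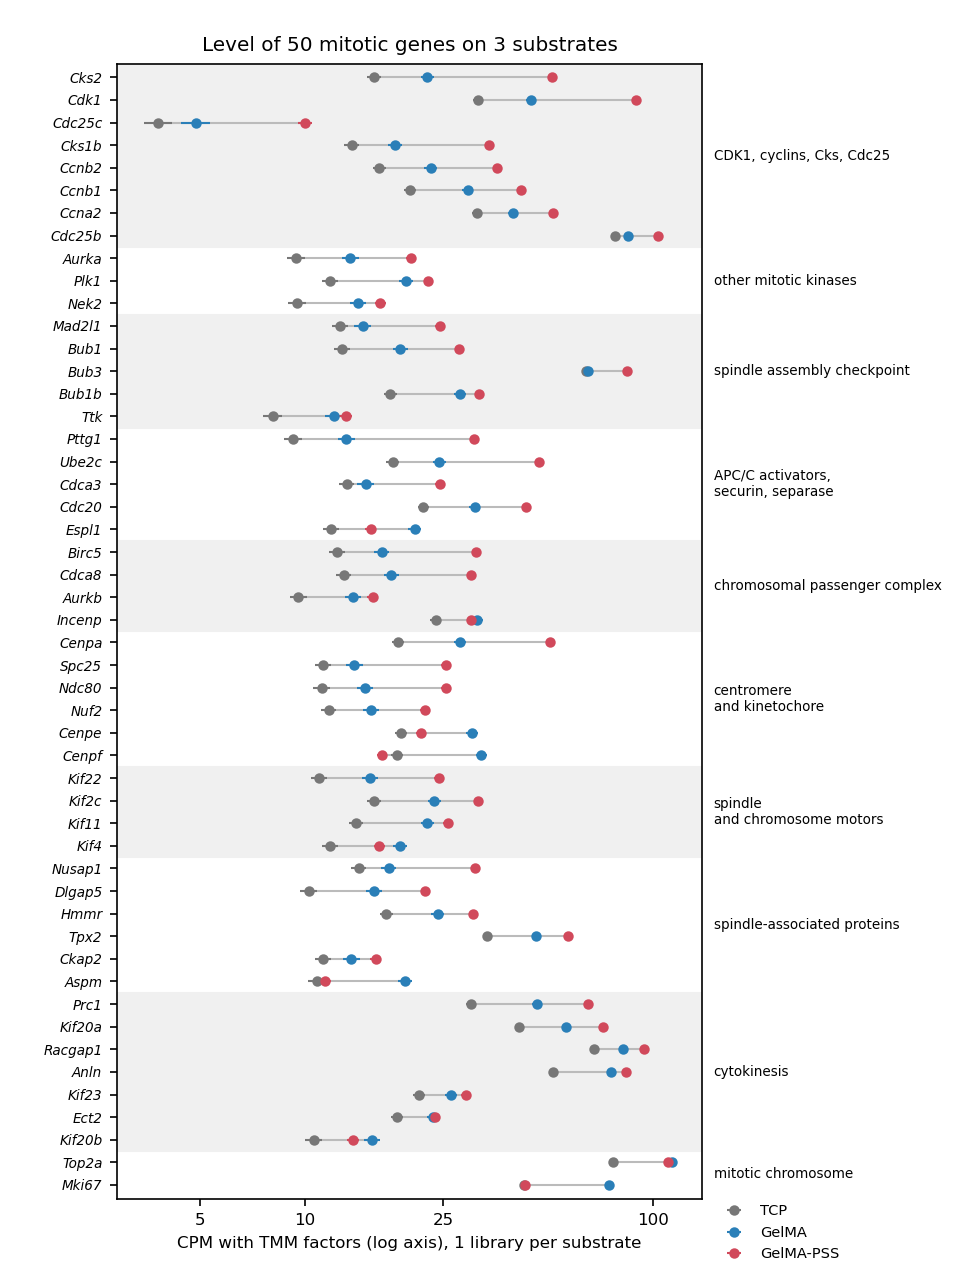
Level of each of the 50 mitotic genes on TCP (grey), GelMA (blue) and GelMA-PSS (red), in CPM with TMM factors on a log axis, grouped by role and ordered within a role by the ratio of GelMA-PSS to GelMA. Points are single libraries and bars are exact 95% Poisson intervals for counting error. In most genes the points run grey, blue, red from left to right (41 of 50 on this scale, 23 of 50 as TPM without TMM factors), while Cenpe, Cenpf, Kif4, Kif20b, Espl1, Aspm, Incenp, Top2a and Mki67 have red to the left of blue.

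All 50 genes were higher on GelMA than on TCP, where 48.3% of all genes tested were higher, and this held under each of the scalings tried. The differences were modest and alike. Thresholds of 1.5-fold and 2-fold are counted here and below on log2(CPM + 1), while single folds with an interval are ratios of CPM without a pseudocount. Of the 50, 0 were more than 2-fold higher, against 0.706% of all genes, and 10 were more than 1.5-fold higher, against 3.50%. These 10 were Plk1, Bub1b, Cenpe, Cenpf, Kif11, Kif4, Prc1, Espl1, Mki67 and Aspm. The median log2 ratio on the same scale was 0.47 for the mitotic genes and -0.01 for all genes, and the values ran from 0.02 for Bub3 to 0.80 for Mki67 with an SD across genes of 0.169, against 0.305 for all genes. In 49 of the 50 the exact 95% interval of the fold, which covers counting error only, lay above 1, against 34.4% of all genes, and Bub3 was the exception. By rank, 38 of the 50 lay above the 90th percentile, where 10.0% of genes lie.

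GelMA-PSS was set against TCP next, a comparison that shares the TCP library with the previous one. Of the 50 genes 49 were higher on GelMA-PSS, against 52.8% of all genes, with Cenpf the exception, and 47 were higher by CPM without TMM factors and 40 by TPM without TMM factors. More than 1.5-fold higher were 35 genes, against 13.2%, and more than 2-fold higher were 19, against 3.72%, namely Cdk1, Ccnb1, Ccnb2, Cdc25c, Aurka, Bub1, Birc5, Cdca8, Cenpa, Ndc80, Spc25, Kif22, Ube2c, Cks1b, Cks2, Prc1, Nusap1, Pttg1 and Dlgap5. The median log2 ratio was 0.83, against 0.04 for all genes, and the range was wide, from -0.13 for Cenpf to 1.63 for Cks2. The counting interval lay above 1 in 47 genes, against 46.3% of all genes, and below 1 in Cenpf, against 41.2%, while those of Mki67 and Aspm included 1.

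Against GelMA, the hydrogel without the sulfonated polymer, GelMA-PSS was higher in 41 genes, against 53.1% of all genes, and lower in 9, against 46.9%. The 9 were Incenp, Cenpe, Cenpf, Kif20b, Kif4, Top2a, Espl1, Mki67 and Aspm. This direction depended on the scaling. By CPM without TMM factors 37 genes were higher, and by TPM without TMM factors 23 were, with the median of all genes at -0.37 and the members' median 0.28 above it. The genes higher with TMM and lower by TPM were Ccna2, Cdc25b, Plk1, Aurkb, Bub1b, Bub3, Ttk, Nek2, Kif11, Kif20a, Kif23, Kif2c, Tpx2, Ect2, Anln, Racgap1, Hmmr and Ckap2. The genes more than 2-fold higher were Cks2 and Pttg1, 2 of 50 against 1.77% of all genes. More than 1.5-fold higher were 16 genes, against 11.0%, and more than 1.5-fold lower were 3, against 10.8%, namely Cenpf, Mki67 and Aspm. The median log2 ratio was 0.37, against 0.03 for all genes, with values from -0.90 for Cenpf to 1.15 for Cks2 and Pttg1. The SD across the 50 genes was 0.472, close to the 0.50 of all genes, so that the ratios were far less even than between the control substrates. Counting intervals lay above 1 for 40 genes, against 45.3% of all genes. They lay below 1 for 8 genes, against 40.0%, and included 1 for Incenp and Ect2.

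These comparisons share libraries, so their counts are not independent of each other. Placed in order, 41 genes ran TCP, GelMA, GelMA-PSS from low to high, as did 22.5% of all genes tested, and 8 ran TCP, GelMA-PSS, GelMA, as did 7.57%. Cenpf, the remaining gene, was lowest on GelMA-PSS. Against both controls at once, 41 genes were higher on GelMA-PSS (45.3% of all genes), 16 by more than 1.5-fold (8.08%) and 2 by more than 2-fold (1.37%).

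**Figure D2:**
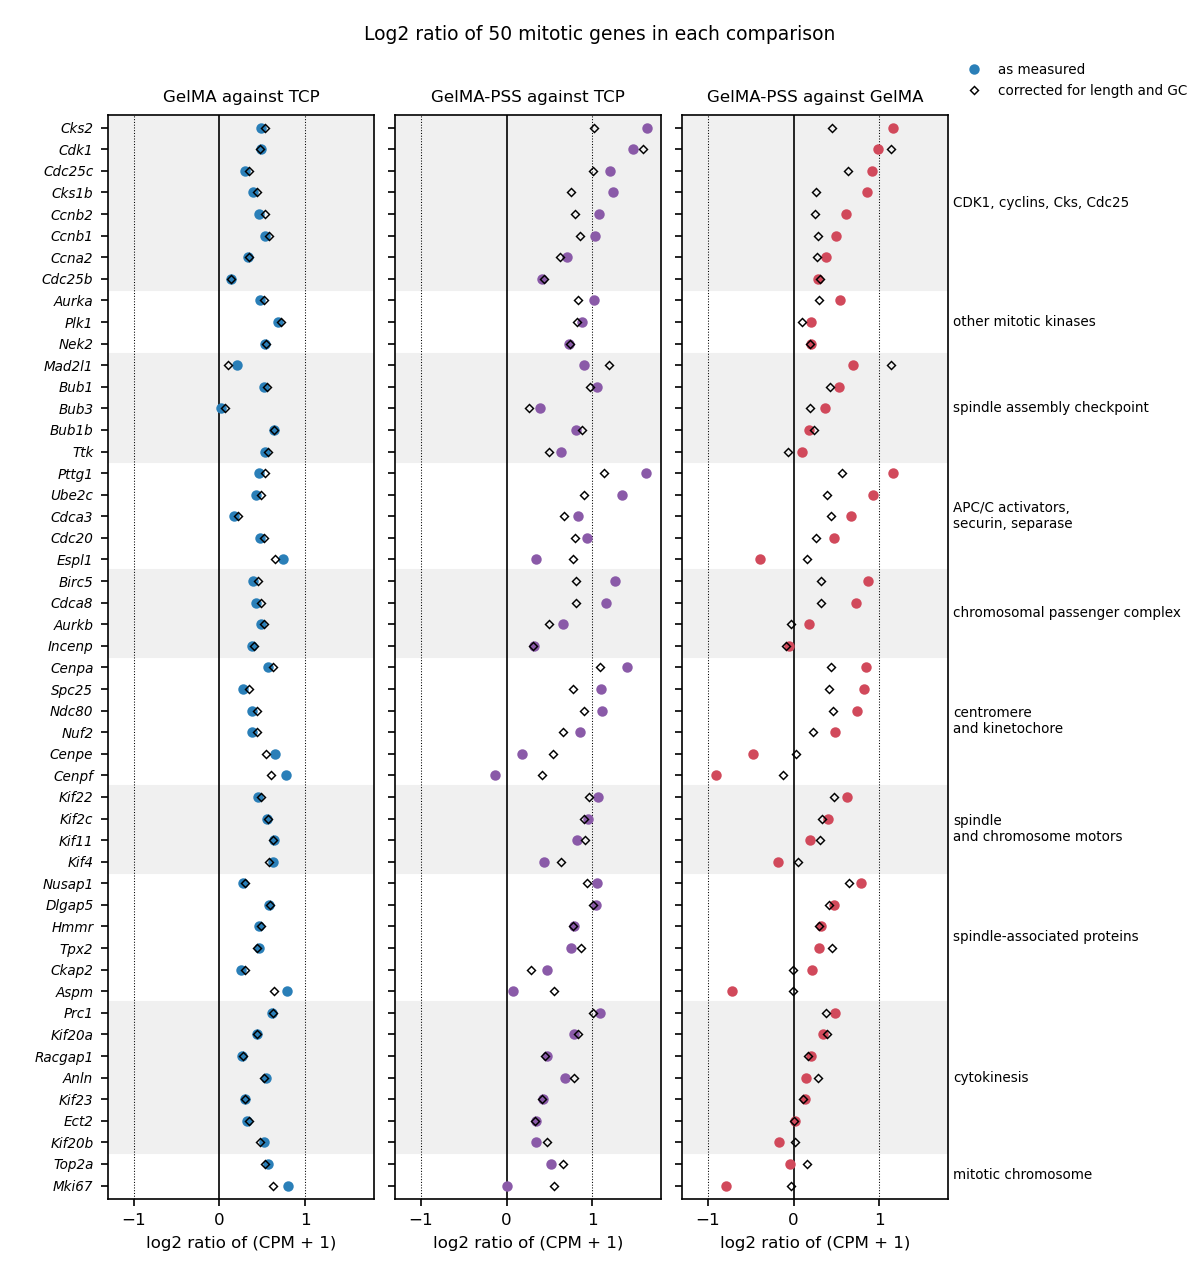
Log2 ratio of (CPM + 1) for each of the 50 mitotic genes in the 3 comparisons, as measured (filled points) and after subtraction of the trend of all genes with transcript length and GC content (open diamonds), grouped by role. Solid lines mark no difference and dotted lines 2-fold. The GelMA to TCP points form a narrow band right of 0, and the spread of the GelMA-PSS to GelMA points, from -0.90 to 1.15, shrinks in the diamonds, which run from -0.12 to 1.13.

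Among the 8 genes of CDK1, its cyclins, the Cks proteins and the Cdc25 phosphatases, all 8 were higher on GelMA-PSS than on either control, except that by TPM without TMM factors Ccna2 and Cdc25b were lower than on GelMA and Cdc25b lower than on TCP. As measured the group had the highest role median against both, at 0.73 against GelMA and 1.14 against TCP, but not after the correction for transcript length described further on, where it had 0.30 and 0.83 and the highest were 0.39 against GelMA, in the genes around the anaphase-promoting complex, and 0.91 against TCP, in the motors. With coding length it was also not the highest, at 0.41 and 0.98. Cdk1, the kinase itself, was at 31.4 CPM on TCP, 44.5 CPM on GelMA and 88.9 CPM on GelMA-PSS. The fold of GelMA-PSS was 2.00 against GelMA (exact counting interval 1.93 to 2.07) and 2.83 against TCP (2.73 to 2.93). Ccnb1, the cyclin B1 that activates CDK1, was at 20.0, 29.3 and 41.8 CPM, a fold of 1.43 against GelMA (1.37 to 1.49). Cks2, a small CDK-binding protein, had the highest log2(CPM + 1) ratio against TCP of all 50 as measured, at 1.63 with Pttg1 next at 1.62, while after the correction for transcript length Cdk1 was highest, at 1.59. It was at 15.8, 22.4 and 51.2 CPM, with folds of 2.28 against GelMA (2.17 to 2.39) and 3.24 against TCP (3.08 to 3.40). Cdc25c, a phosphatase that activates CDK1, had the lowest CPM, at 3.79, 4.86 and 10.0 CPM, and its fold of 2.06 against GelMA (1.86 to 2.29) corresponds to 0.91 on the log2(CPM + 1) scale, which is under 2-fold. Cdc25b, its relative, had the lowest ratio of the group as measured, with 77.5, 84.9 and 103 CPM. The B-type cyclin Ccnb2 was at 16.4, 23.0 and 35.6 CPM and Cks1b, the relative of Cks2, at 13.6, 18.2 and 33.7 CPM. Ccna2, the A-type cyclin that acts in both S phase and mitotic entry, was at 31.2, 39.6 and 51.6 CPM, less separated than the B-type cyclins.

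The 3 mitotic kinases that belong to neither the checkpoint nor the passenger complex, Plk1, Aurka and Nek2, were also in the order TCP, GelMA, GelMA-PSS. Plk1, the Polo kinase of mitotic entry and spindle assembly, was at 11.8, 19.5 and 22.6 CPM, so that its larger step lay between TCP and GelMA, at a log2 ratio of 0.68 against 0.20 for the step to GelMA-PSS. Aurka, the Aurora kinase of the spindle poles, was at 9.46, 13.5 and 20.2 CPM, with nearly even steps of 0.47 and 0.54. Nek2, a centrosomal kinase, was at 9.51, 14.2 and 16.5 CPM.

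The 5 genes of the spindle assembly checkpoint had median log2 ratios of 0.52 between the controls and 0.37 between the hydrogels. Mad2l1, the Mad2 protein that inhibits Cdc20, differed little between the controls and more between the hydrogels, at 12.6, 14.7 and 24.4 CPM, a fold of 1.66 against GelMA (1.56 to 1.77). Ttk, the Mps1 kinase, had the opposite profile, at 8.08, 12.1 and 13.1 CPM, and its fold of 1.08 against GelMA had a counting interval that began at 1.00. Bub3, which recruits the other Bub proteins to kinetochores, had the highest level of the group per coding kilobase, at 65.3, 66.2 and 85.9 CPM per coding kilobase. Its level was 63.9 CPM on TCP, 64.8 CPM on GelMA and 84.0 CPM on GelMA-PSS, and it was the only one of the 50 whose fold between the controls had a counting interval including 1 (0.980 to 1.05). Its partner kinase Bub1 was at 12.8, 18.8 and 27.7 CPM and the related Bub1b at 17.6, 27.9 and 31.7 CPM.

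The enzymes and targets around the anaphase-promoting complex divided by gene. Pttg1, the securin that holds separase inactive, was at 9.25, 13.2 and 30.5 CPM, with folds of 2.32 against GelMA (2.18 to 2.47) and 3.30 against TCP (3.10 to 3.52), the highest folds of the 50 before the pseudocount. Espl1, the separase it inhibits, was at 11.9, 20.7 and 15.5 CPM, a fold of 0.748 against GelMA (0.705 to 0.793). Per kilobase of coding sequence, the ratio of Espl1 to Pttg1 was 0.121 on TCP, 0.148 on GelMA and 0.0476 on GelMA-PSS. These partners also differ in coding length, 6354 bases for Espl1 against 597 for Pttg1, and the ratios on GelMA-PSS followed length, as described further on. Ube2c, the ubiquitin-conjugating enzyme of the complex, was at 17.9, 24.4 and 47.1 CPM, and Cdc20, its mitotic activator, at 21.9, 30.7 and 43.0 CPM. Cdca3, a protein destroyed through the complex, was at 13.2, 14.9 and 24.4 CPM.

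In the chromosomal passenger complex, which corrects faulty attachments, 4 of 4 genes were higher on GelMA than on TCP, by 0.38 to 0.48. Against GelMA, the subunits separated on GelMA-PSS. Birc5 (survivin) was at 12.4, 16.6 and 31.1 CPM and Cdca8 (borealin) at 13.0, 17.7 and 30.1 CPM, with folds of 1.87 (1.77 to 1.98) for Birc5 and a log2 ratio of 0.73 for Cdca8. Aurkb, the kinase of the complex, was at 9.58, 13.8 and 15.7 CPM, a fold of 1.14 (1.07 to 1.22). Incenp, the scaffold, was at 23.8, 31.3 and 30.1 CPM, with a fold of 0.961 whose interval (0.918 to 1.01) included 1. The ratio of Incenp to Birc5 per coding kilobase was 0.306, 0.30 and 0.154 on TCP, GelMA and GelMA-PSS, again between a longer and a shorter gene.

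The 6 centromere and kinetochore genes held the widest contrast as measured, with an SD of 0.751 between the hydrogels, but not after the correction for transcript length, where their SD was 0.239 and that of the checkpoint genes 0.454. Cenpa, the histone variant that marks the centromere, was at 18.5, 27.8 and 50.7 CPM, with folds of 1.82 against GelMA (1.74 to 1.90) and 2.73 against TCP (2.61 to 2.86). The Ndc80 complex subunits, which bind microtubules, had like profiles, with Ndc80 at 11.2, 14.9 and 25.4 CPM, Nuf2 at 11.7, 15.5 and 22.1 CPM and Spc25 at 11.3, 13.9 and 25.4 CPM. Per coding kilobase, Spc25 stood at 2.86, 2.65 and 2.84 times Ndc80 on TCP, GelMA and GelMA-PSS, and Nuf2 at 1.45, 1.45 and 1.21 times. The size of these ratios depended on the length used. Per kilobase of whole transcript, Spc25 was at 7.38, 9.09 and 16.6 CPM and Ndc80 at 5.08, 6.75 and 11.5 CPM. Nuf2 was then below Ndc80, at 4.87, 6.45 and 9.18 CPM. Cenpf, a long coiled-coil protein of the outer kinetochore, was at 18.4, 32.1 and 16.7 CPM, with a fold of 0.520 against GelMA (0.494 to 0.547), the lowest of the 50. Cenpe, the kinetochore kinesin, was also highest on GelMA as measured, at 18.9, 30.2 and 21.6 CPM. Unlike Cenpf it was as measured higher on GelMA-PSS than on TCP, with a fold of 1.14 (1.08 to 1.20) where Cenpf had 0.906 (0.858 to 0.958). After the correction for transcript length both were higher than on TCP, with log2 ratios of 0.54 for Cenpe and 0.41 for Cenpf. With coding length these were 0.79 and 0.56.

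Of the spindle and chromosome motors, Kif22, a chromosome-arm kinesin, was at 11.0, 15.4 and 24.2 CPM. Kif2c, the microtubule depolymerase MCAK, was at 15.8, 23.6 and 31.4 CPM, and Kif11, the kinesin that pushes the spindle poles apart, was at 14.1, 22.5 and 25.7 CPM. Kif4, a chromokinesin, was higher on GelMA than on GelMA-PSS, at 11.8, 18.8 and 16.4 CPM and a fold of 0.871 (0.820 to 0.925). Among the 6 spindle-associated proteins the extremes were Nusap1, which bundles spindle microtubules, at 14.3, 17.4 and 30.8 CPM, and Aspm, a protein of the spindle poles, at 10.8, 19.4 and 11.4 CPM. The fold of GelMA-PSS against GelMA was 1.77 for Nusap1 (1.67 to 1.87) and 0.590 for Aspm (0.553 to 0.629). The other members of this group lay between them. Tpx2, which activates Aurora A on the spindle, was at 33.4, 46.2 and 56.9 CPM. Hmmr, a hyaluronan receptor that also binds spindle microtubules, was at 17.1, 24.1 and 30.4 CPM, Ckap2 at 11.3, 13.6 and 16.0 CPM, and Dlgap5, which stabilizes microtubules near the chromosomes, at 10.3, 15.8 and 22.2 CPM.

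The 7 cytokinesis genes had a median log2 ratio of 0.44 for GelMA against TCP and 0.14 for GelMA-PSS against GelMA. The second value depended on length, at 0.17 after the correction for transcript length described further on and 0.42 with coding length, where all 50 genes had 0.28 and 0.42. Prc1, which bundles the midzone microtubules, was at 30.0, 46.3 and 65.0 CPM, with a fold of 1.40 against GelMA (1.35 to 1.45), the highest of the group as measured. Kif20a was the highest after either correction, at 0.39 with Prc1 at 0.38, and with coding length at 0.58 with Prc1 at 0.53. Kif20a, a kinesin of the spindle midzone, was at 41.2, 56.3 and 71.9 CPM, and Anln, a scaffold of the contractile ring, at 51.6, 75.6 and 83.4 CPM. Kif23 and Racgap1, which together form centralspindlin, were at 21.3, 26.3 and 28.9 CPM and at 67.7, 81.7 and 94.1 CPM. Their ratio was nearly the same on every substrate, since Kif23 stood at 0.207, 0.212 and 0.203 times Racgap1 per coding kilobase on TCP, GelMA and GelMA-PSS. Ect2, the exchange factor that centralspindlin recruits, was at 18.4, 23.4 and 23.6 CPM, not different between the hydrogels beyond counting error, with a fold of 1.01 (0.959 to 1.07). Kif20b was at 10.6, 15.6 and 13.8 CPM, the lowest ratio of the group as measured. Ect2 was the lowest after either correction, at 0.01 with Kif20b at 0.02, and with coding length at 0.24 with Kif20b at 0.42.

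The last 2 genes, which act on the mitotic chromosome itself, were both lower on GelMA-PSS than on GelMA as measured. This depended on length. The log2 ratio of Top2a was -0.04 as measured, 0.15 after the correction for transcript length described next and 0.45 with coding length. That of Mki67 was -0.79, -0.03 and 0.17. Top2a, the topoisomerase that untangles sister chromatids, was at 76.5, 114 and 110.0 CPM, a fold of 0.969 (0.947 to 0.993). If both reads of each pair were counted, which is not known, its interval and that of Ttk would include 1. Mki67, the surface protein of mitotic chromosomes that is widely used as a proliferation marker, was at 42.6 CPM on TCP, 74.7 CPM on GelMA and 42.9 CPM on GelMA-PSS. Its folds were 1.75 for GelMA against TCP (1.69 to 1.82), 0.574 for GelMA-PSS against GelMA (0.556 to 0.594) and 1.01 for GelMA-PSS against TCP (0.973 to 1.04). As measured, Mki67 thus had the highest log2(CPM + 1) ratio of the 50 between the control substrates, at 0.80 with Aspm next at 0.78. After the correction for transcript length Plk1 was highest, at 0.72 with Mki67 at 0.63. With coding length Plk1 was also highest, at 0.69 with Mki67 at 0.59. The level of Mki67 on GelMA-PSS did not differ from TCP beyond counting error. That last value depended on length, since the log2 ratio of Mki67 between GelMA-PSS and TCP was 0.01 as measured, 0.55 after the correction for transcript length described next and 0.75 with coding length.

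The ratios on GelMA-PSS followed the length of the genes. Over the 50 genes, the log2 ratio of GelMA-PSS to GelMA had a Spearman rho of -0.75 and a Pearson r of -0.81 with transcript length, and a rho of -0.85 with coding length. The genes share the same libraries, and the relation was not particular to mitosis, since rho was -0.66 over 13056 genes with a known transcript length. For GelMA against TCP the sign was opposite and the relation weaker, with a rho of 0.41 for the 50 genes and 0.21 for all genes. The 10 genes with the shortest transcripts, 692 to 1793 bases, were Cks2, Cks1b, Birc5, Pttg1, Ube2c, Cdca8, Cenpa, Spc25, Ccnb2 and Cdc20, whose median ratio to GelMA was 0.85 in log2, where all genes in this range of length had 0.43. The 10 with the longest, 4819 to 11130 bases, were Kif11, Kif4, Top2a, Kif20b, Espl1, Mad2l1, Cenpe, Aspm, Mki67 and Cenpf, with a median of -0.29, where all genes in the range had -0.45. By coding length the division was complete at the limits used here, which were chosen after the values were seen. All 12 genes with a coding sequence under 1000 bases were higher on GelMA-PSS than on GelMA, by 0.37 to 1.15, and all 7 with one over 4500 bases were lower, with ratios of -0.90 to -0.04. In these 7 long genes GelMA was higher than TCP by 0.52 to 0.80.

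**Figure D3:**
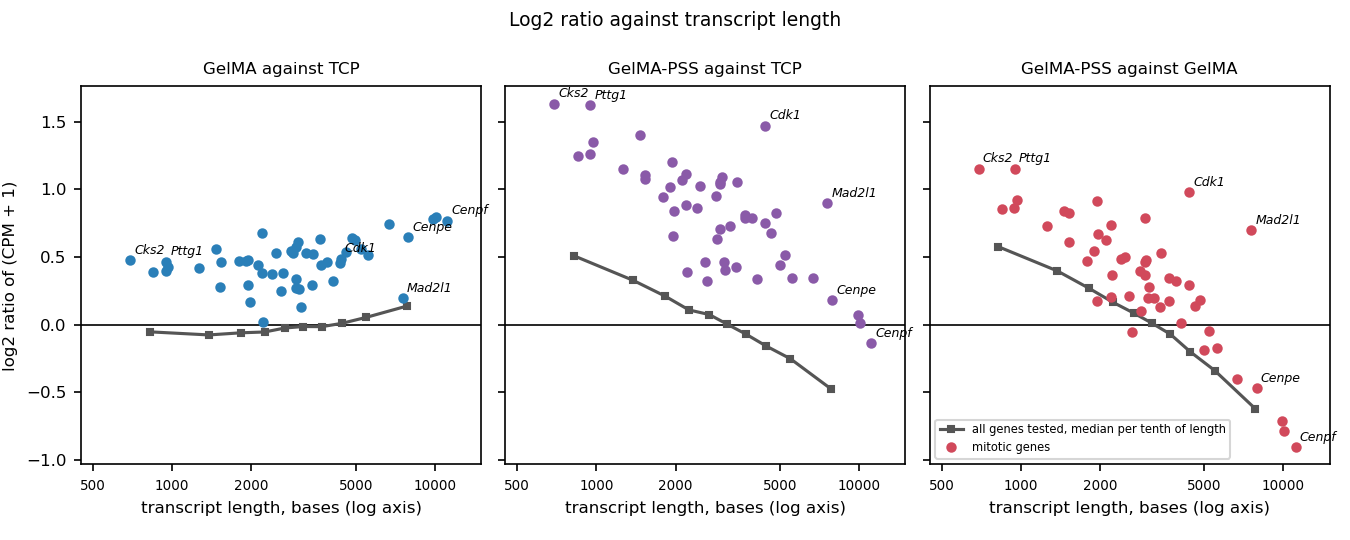
Log2 ratio of (CPM + 1) against transcript length in bases (log axis) in the 3 comparisons. Coloured points are the 50 mitotic genes, and the grey line joins the medians of all genes tested in bins of transcript length. The points follow the slope of the line in both GelMA-PSS panels and lie mostly above it, with Cdk1 and Mad2l1 far above it at their lengths.

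The trend of all genes with transcript length and GC content was then subtracted from each ratio by loess. The median of the 50 genes became 0.28 between the hydrogels, 0.79 between GelMA-PSS and TCP and 0.50 between the controls. The SD across the 50 genes for GelMA-PSS against GelMA was 0.256 in place of 0.472. Higher on GelMA-PSS than on GelMA were then 43 genes (50.2% of all genes with a length), higher than on TCP were 50 (50%), and higher on GelMA than on TCP were 50 (49.2%). The large differences of the extreme genes became smaller, with corrected log2 ratios against GelMA of 0.45 for Cks2, 0.56 for Pttg1, 0.32 for Birc5, -0.12 for Cenpf, -0.03 for Mki67, -0.01 for Aspm and 0.16 for Espl1. More than 2-fold higher against both controls after correction were Cdk1 and Mad2l1, 2 genes against 0.437% of all genes, and 8 genes were more than 2-fold higher than on TCP, against 2.01%. The values of Cdk1 and Mad2l1 depend on the length used. Cdk1 was assigned a transcript of 4375 bases with a coding part of 891, and Mad2l1 one of 7557 bases with a coding part of 615, and with coding length in the correction their ratios against GelMA were 0.75 and 0.32 in place of 1.13 and 1.13. With coding length, an alternative chosen after the data were seen, 49 genes were higher on GelMA-PSS than on GelMA (51.7%), with Cenpf the exception at -0.01, 0 were more than 2-fold higher than on GelMA (0.511%) and 12 more than 2-fold higher than on TCP (2.08%). Whether the relation with length arose in the cells or in the libraries was not tested, and with 1 library per substrate they cannot be told apart.

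Promoters and ratios were set side by side. The 30 genes with both CHR and CCAAT letters had a median log2 ratio of 0.27 between the hydrogels, 0.82 between GelMA-PSS and TCP and 0.48 between the controls, and the 13 genes with 1 or none had 0.53, 0.95 and 0.47. After the length correction the medians against GelMA were 0.24 and 0.33. Pttg1, Nusap1, Mad2l1 and Nuf2, without either kind of letters, had ratios against GelMA of 1.15, 0.79, 0.70 and 0.48. Cdk1 and Mki67, whose promoters hold both, had 0.98 and -0.79, so that as measured genes with like letters lay toward opposite ends of the range. These 2 genes also differ in coding length, 891 bases against 9531. After the correction for transcript length they had 1.13 and -0.03, and with coding length 0.75 and 0.17.

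Other genes of the same machinery, from lists that hold none of the 50, were set against them. All genes of these lists that were in the files passed the filter. The 24 other spindle and cytokinesis genes resembled the 50 between the control substrates, with 23 higher on GelMA than on TCP, against 48.3% of all genes, and a median of 0.48. They had a median of 0.06 for GelMA-PSS against GelMA, with 14 higher, against 53.1%. After the correction for transcript length that median was 0.13, with 16 higher, and with coding length 0.30, with 21 higher. Their highest gene on GelMA-PSS against the mean of the controls as measured was Psrc1, a spindle protein, at 2.42, 4.79 and 6.64 CPM. Their lowest was Numa1, the spindle-pole organizer, at 185, 202 and 125 CPM. The log2 ratios of Numa1 against GelMA and TCP were -0.69 and -0.56 as measured and -0.07 and -0.10 after the correction for transcript length. Those of Psrc1 were 0.40 and 1.16 as measured and 0.14 and 0.95 corrected. Cit, the citron kinase of the midbody, named here after its values were seen, was as measured the only gene of these lists more than 2-fold lower on GelMA-PSS than on GelMA (2.33% of all genes were), at 7.63, 15.5 and 7.02 CPM. Its log2 ratio against GelMA was -1.04 as measured and -0.54, under 2-fold, after the correction for transcript length. The 35 other centromere and kinetochore genes had a median of 0.18 between the controls, of 0.57 between GelMA-PSS and TCP and of 0.34 between the hydrogels, with 29, 33 and 30 genes higher, against 48.3%, 52.8% and 53.1% of all genes. Of them 4 were more than 2-fold higher on GelMA-PSS than on TCP, against 3.72% of all genes, and 1 than on GelMA, against 1.77%. After the correction for transcript length the highest log2 ratios of the list were 0.94 against TCP and 0.71 against GelMA, both under 2-fold. The median between the hydrogels was then 0.19, with 27 higher, and with coding length 0.26, with 28 higher. Cenpp, a subunit of the constitutive centromere network, was as measured more than 2-fold higher on GelMA-PSS than on both controls, at 4.54, 3.74 and 10.6 CPM. Its corrected log2 ratios were 0.71 against GelMA and 0.59 against TCP. The lowest ratios against the mean of the controls as measured were those of Zw10, a kinetochore protein of the checkpoint, at 16.1, 16.2 and 14.7 CPM, and of Hjurp, the chaperone of Cenpa, at 50.7, 56.6 and 48.8 CPM.

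The 23 other genes of mitotic entry and its control had medians of 0.34, 0.48 and 0.22 for GelMA to TCP, GelMA-PSS to TCP and GelMA-PSS to GelMA, with 19, 20 and 16 higher, against 48.3%, 52.8% and 53.1% of all genes, and 3 were more than 2-fold higher on GelMA-PSS than on TCP, against 3.72%. Cdkn3, a phosphatase that acts on CDKs, was as measured more than 2-fold higher on GelMA-PSS than on both controls, at 1.63, 2.04 and 5.18 CPM. After the correction for transcript length its log2 ratios were 0.44 against GelMA and 0.76 against TCP, both under 2-fold. Lin54, the DNA-binding subunit of MuvB, had the lowest ratio against the mean of the controls, at 8.89, 10.7 and 9.06 CPM. The transcription factors Foxm1 and Mybl2, which act with MuvB on mitotic promoters and are named here after their values were seen, were at 18.4, 26.1 and 22.8 CPM and at 4.71, 7.24 and 7.01 CPM. The fold of GelMA-PSS to GelMA was 0.874 for Foxm1 (0.831 to 0.920) and 0.967 for Mybl2, whose interval (0.880 to 1.06) included 1, and after the correction for transcript length both log2 ratios were 0.10. The 15 core subunits of the anaphase-promoting complex, most of them made throughout the cell cycle, had a median of -0.01 for GelMA against TCP, with 7 higher, close to the 48.3% of all genes, and 0.29 for GelMA-PSS against GelMA, with 13 higher, against 53.1%. Among them Anapc10 had the highest ratio of GelMA-PSS to the mean of the controls as measured, at 18.0, 16.4 and 34.1 CPM. Anapc1, the largest subunit, had the lowest, at 157, 184 and 135 CPM. The log2 ratios of Anapc1 were -0.44 against GelMA and -0.21 against TCP as measured. After the correction for transcript length they were 0.23 and 0.27. The median of the 15 subunits against GelMA was then 0.19, with 14 higher, and with coding length 0.16, with 11 higher.

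**Figure D4:**
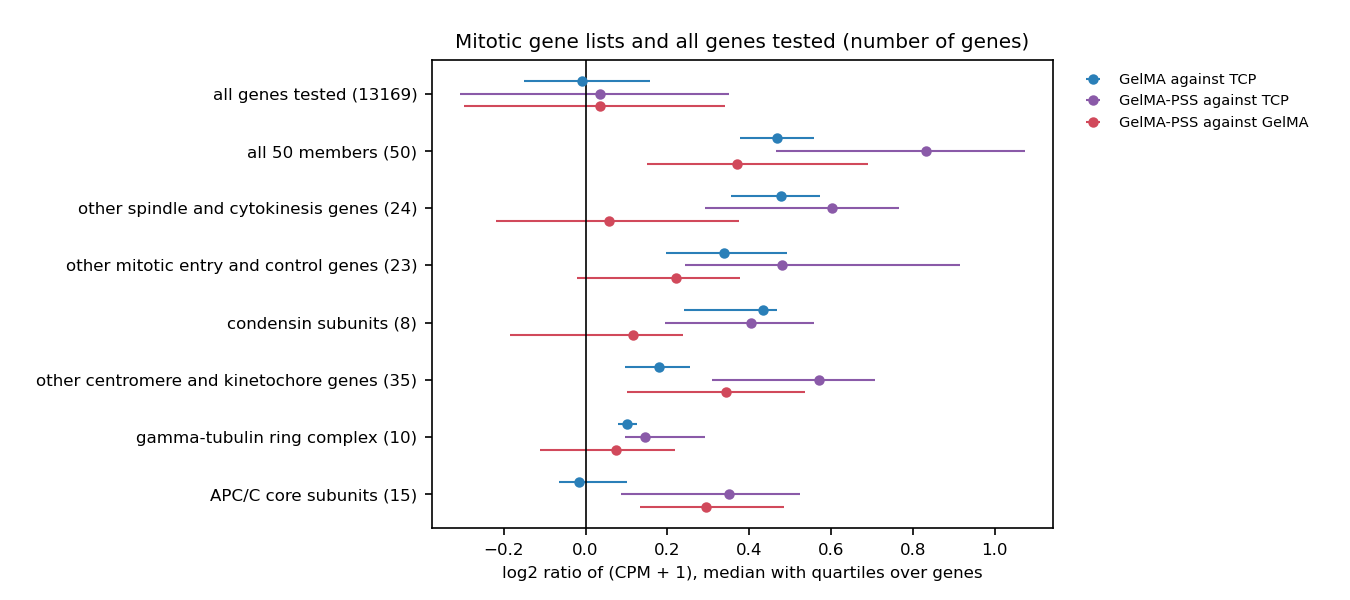
Median log2 ratio of (CPM + 1) with quartiles over genes for all genes tested, the 50 mitotic genes and 6 further mitotic lists, in each comparison, with the number of genes in parentheses. Bars show the spread over genes and not replicate error. The 50 genes lie at 0.47 for GelMA against TCP and 0.83 for GelMA-PSS against TCP, and the core subunits of the anaphase-promoting complex lie at -0.01 for GelMA against TCP.

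The counts of 10 members may not be fully separated from those of a neighbour, since these genes overlap an annotated gene on the opposite strand and the sources used here do not say whether counting used the strand. The neighbour with the highest level was that of Ube2c, which shares 1662 bases with Tnnc2, a fast-muscle troponin at 1718, 1096 and 1167 CPM on TCP, GelMA and GelMA-PSS. Ube2c itself, at 17.9, 24.4 and 47.1 CPM, was lowest on TCP, where Tnnc2 was highest. Both were higher on GelMA-PSS than on GelMA. The other pairs were Ccna2 with Exosc9, Cdc20 with Elovl1, Cdc25b with Spef1, Bub3 with Fgfr2, Cdca8 with 9930104L06Rik, Kif20a with Cdc23, Kif4 with Pdzd11, Prc1 with Rccd1 and Nusap1 with Oip5, with neighbours at 0.370 to 93.6 CPM. How many counts such pairs share was not tested.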

How the data were processed

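Each library has 1 file of counts for gene symbols, which the authors deposited with no normalization. The submitters' processing notes name TopHat, edgeR, hg19 and mm10 with no role. The counting tool and annotation are not given in the sources used here. The labels name a SMARTER kit, whereas the methods name a TruSeq kit and 101 bp strand-specific paired-end reads. Lines sharing a symbol (35 symbols) were summed, leaving 23238 symbols. Summed counts of TCP, GelMA and GelMA-PSS were 119799095, 87071144 and 192171443. The limit of detection, set at 3 counts, was therefore 0.0246, 0.0330 and 0.0166 CPM.

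CPM used TMM factors of 1.02, 1.04 and 0.943 (Python 3.11.15, numpy 2.4.6, pandas 2.3.3), checked against edgeR 4.0.16 and tested on simulated data. Genes below a CPM of 1 in every library were left out, and ratios were taken on log2(CPM + 1), which understates differences of low genes. Folds are ratios of CPM without the added 1. With 1 library per substrate no test was possible, so each count and median stands beside that of all genes tested. Intervals at 95% are exact for folds and CPM and Wilson for shares (scipy 1.17.1). They cover counting error only, and counting each mate of a pair separately would make them too narrow.

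GENCODE vM21 (GRCm38) gave length and GC content, from 1 transcript per gene, for all 50 members. Each ratio was corrected by 2 loess fits in turn (statsmodels 0.14.6, span 0.3). Members, roles and lists were chosen with earlier results of these data known. Full values are given for the highest and lowest member of each role against the nearer control, members past 2-fold against both controls, Cdk1, Ccnb1, Plk1, Aurkb, Top2a and Mki67, and, in the other lists, the genes past 2-fold against both controls and the highest and lowest against the mean of the controls. Alternatives covered the threshold, pseudocount, filter, scaling and length correction. Protein sequences were not used here.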

Additional observations from a re-analysis of the deposited data

How the results depend on the processing

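With 11 alternative settings the 8 counts and medians gave 84 further values, of which 57 stayed close to the reported ones, 26 moved and 1 reversed. All 50 genes were higher on GelMA than on TCP in every setting. A 1.5-fold threshold gave 16 genes for GelMA-PSS above GelMA, 35 above TCP, 16 above both and 10 for GelMA above TCP. A pseudocount of 5 CPM gave 1, 8 and 1 genes past 2-fold above GelMA, TCP and both, and medians of 0.70 (GelMA-PSS against TCP) and 0.39 (GelMA against TCP), as a larger pseudocount shrinks every ratio. CPM without TMM factors gave 11 genes above TCP and medians of 0.23 against GelMA and 0.73 against TCP. TPM without TMM factors gave 0, 4 and 0 genes above GelMA, TCP and both, 23 genes in the order TCP, GelMA, GelMA-PSS, and medians of -0.088 against GelMA, below 0 where the reported value was above it, and 0.41 against TCP. The median of all genes then moved to -0.37 and -0.32, and relative to it the 50 genes lay at 0.28 and 0.73. The loess correction gave 8 genes above TCP and medians of 0.28 and 0.79, subtracting the median of genes of like length, in 10 bins, gave 10 genes and medians of 0.30 and 0.77, and the coding-length correction, chosen after seeing the data, gave 0, 12 and 0 genes above GelMA, TCP and both. No paired analysis was possible because each substrate has 1 library, and no library could be left out for the same reason.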

Other observations

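Beyond the spindle and kinetochore, the 8 condensin subunits, which compact chromosomes for mitosis, were all higher on GelMA than on TCP (48.3% of all genes were), with a median log2 ratio of 0.43. As measured, 5 of 8 were higher on GelMA-PSS than on GelMA (53.1%), with a median of 0.12. After the correction for transcript length 6 were higher, with a median of 0.20, and with coding length 7, with a median of 0.42. Ncaph, a subunit of condensin I, had the highest ratio of GelMA-PSS to the mean of the controls, at 14.7, 21.0 and 27.5 CPM on TCP, GelMA and GelMA-PSS. Ncapg2, a subunit of condensin II, had the lowest, at 14.0, 19.6 and 14.5 CPM. The shared core subunit Smc2 was at 24.4, 34.7 and 29.0 CPM, and Smc4 at 67.2, 74.8 and 87.7 CPM. As measured, partners of 1 ring thus differed in which hydrogel had more, with log2 ratios against GelMA of -0.25 and 0.23. After the correction for transcript length these were -0.08 and 0.25. Both genes were named after their values were seen.

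The 10 genes of the gamma-tubulin ring complex, which nucleates microtubules in dividing and resting cells alike, lay close to all genes, with medians of 0.10 for GelMA against TCP, 0.14 for GelMA-PSS against TCP and 0.07 for GelMA-PSS against GelMA. Mzt2 was the highest of them on GelMA-PSS relative to the mean of the controls, at 11.2, 10.7 and 14.0 CPM, and Tubgcp6 the lowest, at 43.3, 46.4 and 35.2 CPM. None of the 10 passed 2-fold in either direction in any comparison.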
